A study of Drosophila melanogaster with 48 samples.

Results

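The libraries were grouped by the half-day phase at which flies were collected, to ask whether ribosome-bound mRNA levels in astrocytes repeated every 12 h. Translating ribosome affinity purification (TRAP) was used, in which a tagged ribosomal protein is expressed in chosen cells and pulled down together with the mRNAs it carries. All groups shared 1 genotype, elav-Gal80 and eaat1-Gal4 driving UAS-EGFP-L10a, so that the tag was made mainly in astrocytes (with some cortex glia) and repressed in neurons. Adult flies were entrained to LD 12:12, moved to constant darkness (DD) and frozen every 4 h at 12 time points, with the heads of many flies pooled for each sample and 2 biological replicates from independent crosses. The files hold 2 technical data sets for each library, and these were summed, giving 24 libraries from all 48 data sets. Taking hours in DD modulo 12 gave 3 groups of 8 libraries each. Group 0 holds 0, 12, 24 and 36 h, group 4 holds 4, 16, 28 and 40 h, and group 8 holds 8, 20, 32 and 44 h. Each group therefore mixes samples collected 12 h apart and holds both days and both replicates. Fly age and sex are not given in the labels. The sample titles carry a letter whose meaning is not given there. In the first data set of each library it was c in all 12 libraries of replicate 2. In replicate 1, group 0 had 3 libraries with a and 1 with b, group 4 had 1 with a, 2 with b and 1 with d, and group 8 had 3 with a and 1 with b. In the second data set it was g throughout replicate 2, e in the 16 h library of replicate 1 and otherwise unchanged. The letter of the first data set is the one used below.

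In flies a 24 h transcriptional loop drives most known daily mRNA rhythms: CLK and CYC activate per and tim, whose proteins return to the nucleus and repress CLK and CYC. A side loop runs through vri and Pdp1, which act on Clk. Components of 12 h are known in mouse liver, where they have been linked to the unfolded protein response and to mitochondrial and translation genes, and fly locomotor activity has a morning and an evening peak. A 24 h wave that is not a plain cosine also contributes to a 12 h term. At 4 h sampling, 3 groups carry exactly 1 cosine and 1 sine of 12 h, and a 6 h rhythm would give the same group pattern, so these cannot be told apart here.

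No gene differed between the half-day groups after adjustment. Of 9392 genes with a mean of at least 20 counts, 0 (0%) had a Benjamini-Hochberg adjusted p under 0.05 in edgeR's quasi-likelihood F test with the 24 h cosine and sine and the biological replicate in the model, and the lowest adjusted p was 0.587. At an unadjusted p under 0.05 there were 764 genes (8.13% of those tested). Adjusted p-values of single genes below are from this F test over the 3 groups unless another test is named. This holds also where they follow a difference between a pair of groups. The tested genes had a median 12 h amplitude of 0.15 on the log2 scale, with a median standard error (SE) of 0.12. A difference between groups had a median SE of 0.20 (log2).

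The same model did separate genes by the 24 h term. There 53 genes passed at an adjusted p under 0.05 (0.564%), and 732 passed unadjusted (7.79%). Thus nearly equal numbers of genes had a low unadjusted p for either period, while calls after adjustment were made for the 24 h period only. DESeq2 called 140 genes for 24 h and 0 for the half-day groups, where it gave 823 at an unadjusted p under 0.05.

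**Figure D1:**
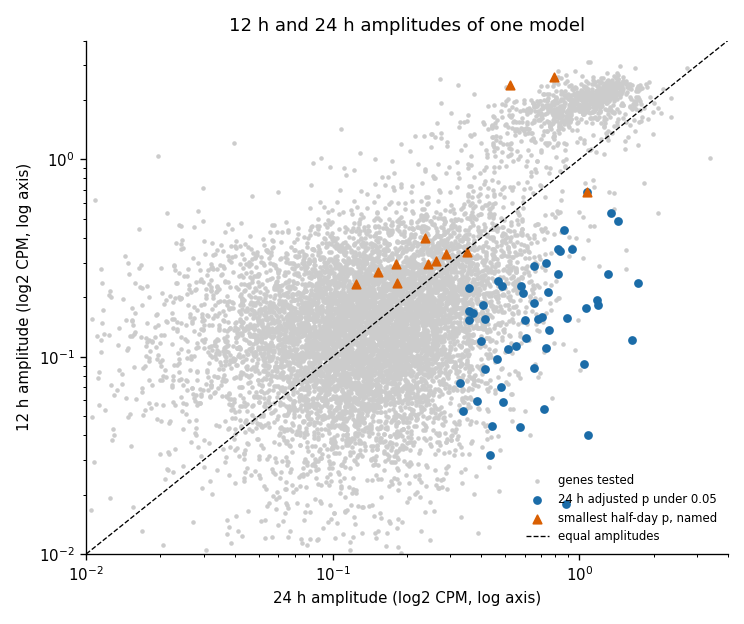
Amplitude of the 24 h term (horizontal, log2 CPM, log axis) and of the 12 h term (vertical, log2 CPM, log axis) of each gene tested with both over 0.01, both from 1 model; blue points are the 53 genes called for 24 h and orange triangles the 12 named genes of smallest half-day p. All 53 blue points, which the 24 h term itself chose, lie below the line of equal amplitudes. Of all genes tested, 52.4% had the larger amplitude at 12 h.

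Before the genes are described, the libraries themselves have to be set beside the groups. Counts on genes ran between 6371034 and 37267216 per library. The number of genes with at least 1 count was 10596 to 13845 (median 12344.5) in group 0, 10162 to 12851 (median 10911) in group 4 and 10576 to 13863 (median 12559) in group 8. The TMM scaling factor, which edgeR sets from the bulk of the genes, averaged 1.13 ± 0.18 in group 0, 0.87 ± 0.18 in group 4 and 1.07 ± 0.18 in group 8 (SD, n = 8 each). On the first principal component of log2 CPM (the count of a gene scaled by the size of its library, with TMM) within replicates, which held 71.0% of the variance and is turned so that high values go with more genes detected, 6 of 8 libraries of group 4 were below 0, against 3 of 8 in group 0 and 3 of 8 in group 8. In permutation tests (100000 permutations, two-sided) of 9 library measures, the smallest p was 0.0205 for the scaling factor, adjusted p = 0.184, and the number of genes detected had p = 0.11, adjusted p = 0.25. None of the 9 passed after adjustment. Of the 12 libraries below 0 on the first component, 6 were in group 4. In replicate 1 all 5 libraries with the title letter b or d were below 0, against 1 of the 7 with the letter a. In replicate 2, with c in every first and g in every second data set, 6 of 12 were. The letter and the first component thus moved together with group 4 in replicate 1, and their part in the differences of group 4 below was measured only by adding each to the model. In the 28 h library of replicate 2, which is in group 4 and stood apart, the 10 highest genes took 49.6% of the counts. It had 47.0% of reads not uniquely mapped, where the other libraries of replicate 2 had 3.92% to 7.33%. Its counts (6371034) and its scaling factor (0.63) were the lowest of all libraries. Without this library 561 genes had an unadjusted half-day p under 0.05 (edgeR). The 16 h library of replicate 1, also in group 4, had 9.47% of reads not uniquely mapped. The other libraries of replicate 1 had 21.7% to 36.9%. The titles of that 16 h library have a capital A, like those of replicate 2 and unlike the others of replicate 1. Whether it was prepared differently is not given in the labels. Leaving it out gave 380 genes at an unadjusted half-day p under 0.05 (edgeR), beside 764 with it. In the 28 h library of replicate 1 the first data set held 91 counts.

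**Figure D2:**
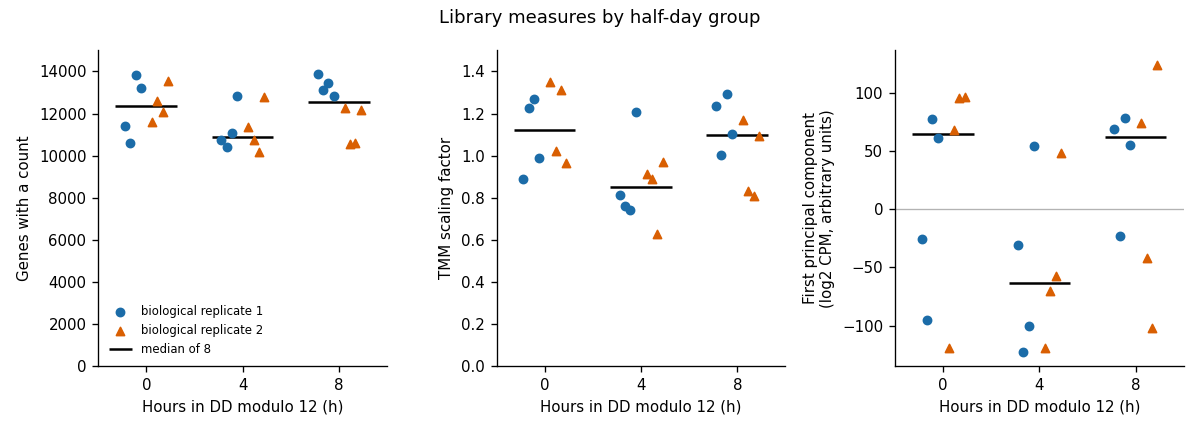
Genes with a count (left), TMM scaling factor (middle) and first principal component (right, arbitrary units) of each of the 24 libraries against hours in DD modulo 12; circles are biological replicate 1, triangles replicate 2, and bars the median of 8 libraries. Group 4 has a median of 10911 genes with a count, and 6 of its 8 libraries lie below 0 on the first component.

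The cells that the libraries come from could be checked in part. Only 4 of the 13 listed glial markers were paired with an identifier here, among them wrapper and Indy, and their summed level was 138 to 253 CPM in group 0, 148 to 217 CPM in group 4 and 124 to 225 CPM in group 8 (permutation p = 0.802, adjusted p = 0.979). Of 9 photoreceptor markers 3 were paired, with a summed level of 719 to 1706 CPM in group 0, 733 to 1394 CPM in group 4 and 821 to 1424 CPM in group 8 (adjusted p = 0.985). The 1 hemocyte marker measured, NimC1, stood at 2.78 to 3.97 CPM in group 0, 2.36 to 5.98 CPM in group 4 and 1.35 to 4.33 CPM in group 8 (adjusted p = 0.204). The 3 paired photoreceptor markers were thus present in every group at similar sums. Of these, chp and inaD averaged 86.0 and 98.7 CPM over all libraries, so most of the sum came from the remaining marker. The neuron, fat body and muscle marker lists had no member paired with a symbol and were not analysed here. In bulk samples such as these, fewer cells of a type and less RNA per cell cannot be told apart.

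Set against each other in pairs, the groups differed mainly through group 4. In group 4 against group 0, 600 genes were higher (6.39%) and 688 lower (7.33%) at an unadjusted p under 0.05. In group 8 against group 4, 782 were higher (8.33%) and 475 lower (5.06%). In group 8 against group 0 only 62 were higher (0.66%) and 61 lower (0.649%). No pair gave a gene with an adjusted p under 0.05 (0%, edgeR). The split of the first pair by direction turned on single libraries: without the 24 h library of replicate 1 it was 545 higher and 313 lower. Without the 16 h library of replicate 1 it was 280 higher and 529 lower. For group 8 against group 4 the split turned as well: without the 44 h library of replicate 2 it was 221 higher and 440 lower.

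The 764 genes were divided into 2 kinds by a cut in their own fitted 12 h amplitude. In 250 of them the 12 h amplitude was over 1 (log2). These had a low median of 42.8 counts per library, and 240 of the 250 were lowest in group 4. Among all 764 it was 340, and the share over all genes tested is not given here. Their level followed the number of genes detected, with a median Pearson r of 0.76 over the 24 libraries (a description, as all points share depth and scaling). With the first principal component in the model 29 of the 250 kept an unadjusted p under 0.05. Neither value is an independent check. Low-count genes that fall to 0 lower the number of genes detected, and the component was computed from genes that include these 250. The other 514 genes had a median of 257 counts and a median amplitude of 0.31. Of these, 390 were highest and 100 lowest in group 4. Counting all 764, group 0 was the highest group in 100 genes (13.1%, beside 27.2% of all genes tested), group 4 in 397 (52.0%, beside 41.9%) and group 8 in 267 (34.9%, beside 30.9%). With TMM 410 of the 764 were higher in group 4 than in group 0 and 354 lower. The same 764 genes gave 407 higher and 357 lower with DESeq2's size factors, 423 and 341 with limma-voom after quantile normalization, and 247 and 517 with the library total alone. Each fit's own genes at an unadjusted p under 0.05 were split differently, into 241 higher and 582 lower with DESeq2, 499 and 146 with limma-voom, and 10 and 1490 with the library total alone. With the library total alone the median of all genes moved by -0.36 (log2) between group 4 and group 0.

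Sgp (listed by the study as CG13091, chromosome 2L, 8519690 to 8521809, Release 6) had the smallest p among genes with a symbol and an amplitude over 1. Its level was 0.23 to 22.7 CPM (median 4.09) in group 0, 0 to 1.35 CPM (median 0.332) in group 4 and 0.168 to 13.3 CPM (median 3.93) in group 8. It was at 0 in 3 libraries of group 4 and in no library of the other groups, and the ranges overlapped. The difference of group 4 from group 0 was -4.36 ± 1.01 (log2 ± SE), with an adjusted p of 0.587 over the 3 groups (edgeR F test). The gene bb8, which encodes a glutamate dehydrogenase needed in sperm development, had 0.115 to 6.08 CPM (median 2.77) in group 0, 0 to 0.998 CPM (median 0.18) in group 4 and 0.279 to 15.8 CPM (median 2.46) in group 8. Here too the low values sat in group 4 and overlapped those of the other groups. The difference between group 4 and group 0 was -3.25 ± 0.97 (adjusted p = 0.587 over the 3 groups). Others of this kind were CSN1a and RpL10Aa. CSN1a, a COP9 signalosome subunit noted after its values were seen, differed by -4.20 ± 1.22 between group 4 and group 0, and RpL10Aa, a ribosomal protein paralogue, by -2.70 ± 1.16. Rpt6R of the proteasome list and COX6AL of the oxidative phosphorylation list, which also had few counts, were not among the 764. They differed by -2.20 ± 1.08 (adjusted p = 0.607 over the 3 groups) and -1.84 ± 1.12 (adjusted p = 0.613 over the 3 groups). With the first principal component in the model the same differences were -2.21 for Sgp, -1.35 for bb8, -2.24 for CSN1a, 0.25 for RpL10Aa, -0.25 for Rpt6R and 0.41 for COX6AL, so that RpL10Aa and COX6AL changed sign.

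The 12 genes of smallest p were of the other kind. All 12 were highest in group 4 (as were 41.9% of all genes tested), and 10 were lowest in group 0 (as were 247 of the 764). Their differences between group 4 and group 0 ran between 0.32 and 0.76 (log2), and no adjusted p over the 3 groups was under 0.587. Only 1 of them, Cul1, had a symbol in the sources used here. The smallest p of all genes belonged to FBgn0022764. It had 17.0 to 46.8 CPM (median 30.5) in group 0, 23.7 to 57.3 CPM (median 47.4) in group 4 and 20.3 to 39.8 CPM (median 30.6) in group 8. Its difference between group 4 and group 0 was 0.59 ± 0.14, being 0.75 in replicate 1 and 0.42 in replicate 2. FBgn0035170 had 4.71 to 11.6 CPM (median 8.36) in group 0, 8.35 to 19.6 CPM (median 12.6) in group 4 and 6.39 to 11.6 CPM (median 8.15) in group 8. For both, group 4 had the highest median and overlapped the others.

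Cul1 (chromosome 2R, 7916856 to 7921579), the scaffold of SCF ubiquitin ligases, was 41.5 to 63.3 CPM (median 51.1) in group 0, 54.0 to 70.5 CPM (median 66.2) in group 4 and 39.5 to 60.6 CPM (median 49.1) in group 8. Most libraries of group 4 lay above those of the other groups, with overlap. Group 4 was above group 0 by 0.32 ± 0.09 (log2 ± SE), and group 8 was below group 4 by -0.38 ± 0.09. The adjusted p over the 3 groups was 0.587 (edgeR F test). The fitted 12 h amplitude of Cul1 was 0.24 ± 0.05. Its difference between group 4 and group 0 was 0.37 in replicate 1 and 0.25 in replicate 2.

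Among the other genes with a symbol and the smallest p (12 in all, a set chosen after the values were seen, since most leading genes had no symbol), PEK is the ER-resident kinase that phosphorylates eIF2alpha in the unfolded protein response. PEK (chromosome 3R, 5458563 to 5464753) was 9.92 to 14.6 CPM (median 12.2) in group 0, 10.6 to 21.3 CPM (median 15.96) in group 4 and 11.3 to 16.5 CPM (median 14.2) in group 8. Group 4 was above group 0 by 0.41 ± 0.10, by 0.45 in replicate 1 and 0.34 in replicate 2 (adjusted p = 0.587 over the 3 groups). Ulp1, a SUMO protease, was 12.2 to 22.2 CPM (median 13.6) in group 0, 11.2 to 27.6 CPM (median 20.7) in group 4 and 12.1 to 20.5 CPM (median 13.6) in group 8, the difference between group 4 and group 0 being 0.42 ± 0.13. Ltn1, the ubiquitin ligase that marks nascent chains on stalled ribosomes, was 5.21 to 15.9 CPM (median 10.1) in group 0, 11.5 to 16.8 CPM (median 14.3) in group 4 and 7.04 to 13.7 CPM (median 11.7) in group 8, with a difference of 0.50 ± 0.15 between group 4 and group 0. In Ltn1 it was the low libraries that were missing from group 4, where the lowest stood at 11.5 CPM. The ubiquitin ligase gene hyd, noted after its values were seen, differed between group 4 and group 0 by 0.53 ± 0.16.

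CG18302 was 4.47 to 12.9 CPM (median 6.95) in group 0, 7.52 to 15.0 CPM (median 11.6) in group 4 and 7.98 to 13.3 CPM (median 9.29) in group 8. Its difference between group 4 and group 0 was nearly the same in both replicates, 0.59 in replicate 1 and 0.61 in replicate 2. Of the others, also highest in group 4 were yellow-d of the yellow family (difference from group 0 of 0.56 ± 0.16), sfl, an enzyme of heparan sulfate synthesis (0.57 ± 0.20), and CG1909 (0.42 ± 0.13). All 3 had an adjusted p of 0.587. Cul1, Ltn1, yellow-d and sfl overlap other annotated genes (Or43b; Rcd7 and CG46435; CG13551; betaTub65B and 2 lncRNAs), whose reads may be mixed with theirs, as the use of strand in counting is not given in the sources used here.

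**Figure D3:**
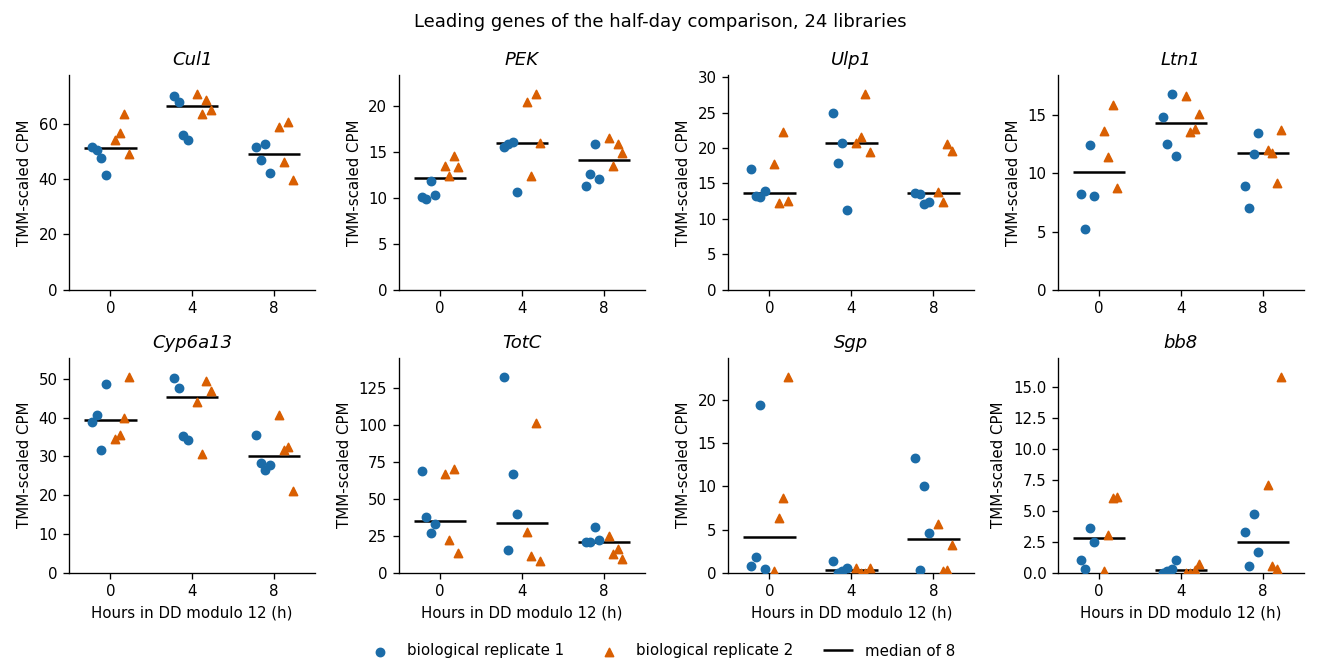
TMM-scaled CPM of 8 leading genes in each of the 24 libraries against hours in DD modulo 12; circles are biological replicate 1, triangles replicate 2, and bars the median of 8 libraries. Group 4 has the highest median for Cul1 (66.2 CPM) and PEK (15.96 CPM) and the lowest for Sgp (0.332 CPM) and bb8 (0.18 CPM), and the points of the groups overlap in every panel.

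Cyp6a13 and TotC were lowest in group 8, as were Cul1, Ulp1 and sfl. Cyp6a13, a cytochrome P450, was 31.7 to 50.4 CPM (median 39.5) in group 0, 30.6 to 50.3 CPM (median 45.4) in group 4 and 21.0 to 40.6 CPM (median 30.0) in group 8. Its difference between group 8 and group 4 was -0.48 ± 0.13 and between group 8 and group 0 -0.40 ± 0.12 (adjusted p = 0.587 over the 3 groups). TotC, a secreted stress-response peptide of the Turandot family, was 13.2 to 70.4 CPM (median 35.3) in group 0, 8.1 to 132 CPM (median 33.4) in group 4 and 9.02 to 31.1 CPM (median 20.8) in group 8. The difference between group 8 and group 0 was -1.07 ± 0.30 (adjusted p = 0.587 over the 3 groups), being -0.81 in replicate 1 and -1.23 in replicate 2. The difference between group 4 and group 0 was 0.33 in replicate 1 and -0.51 in replicate 2, so that the replicates differed in sign there.

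Of the core clock genes, per, tim, vri, Pdp1 and cry passed the 24 h test, each with a 12 h amplitude below its 24 h amplitude, and Clk did not pass. The median 12 h amplitude of the list was 0.21, beside 0.15 over all genes. Of 8 listed members 6 were measured, and 0 passed the half-day test after adjustment, with 1 (Clk) at an unadjusted p under 0.05. The period gene per (chromosome X, 2685580 to 2692780) averaged 10.1 ± 1.9 CPM at 0 h, 46.9 ± 1.0 CPM at 12 h, 8.8 ± 1.7 CPM at 24 h and 38.8 ± 8.3 CPM at 36 h (SD, n = 2 each). These 4 time points all belong to group 0, so group 0 held both the low and the high libraries of per. Its range was 7.58 to 47.7 CPM in group 0, 9.73 to 55.6 CPM in group 4 and 14.8 to 39.0 CPM in group 8. The 12 h amplitude of per was 0.18 ± 0.09 and its 24 h amplitude 1.19 ± 0.09 (half-day adjusted p = 0.656). For tim, the partner of per, the range was 26.9 to 300.3 CPM in group 0, 13.8 to 375.2 CPM in group 4 and 50.2 to 255.4 CPM in group 8. The 12 h amplitude of tim was 0.12 ± 0.16 and its 24 h amplitude 1.64 ± 0.17 (half-day adjusted p = 0.949).

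The repressor gene vri had a 12 h amplitude of 0.26 ± 0.15 and a 24 h amplitude of 1.31 ± 0.15. For the activator gene Pdp1 they were 0.16 ± 0.16 and 0.89 ± 0.16, and for cry, the blue light receptor of the clock, 0.23 ± 0.11 and 0.58 ± 0.11. All 3 had a half-day adjusted p of at least 0.645. For Clk, the activator itself, the 12 h amplitude (0.42 ± 0.15) was not below the 24 h amplitude (0.35 ± 0.15), and neither term passed after adjustment (adjusted p = 0.587 for 12 h and 0.737 for 24 h). Clk was 2.64 to 15.4 CPM (median 10.3) in group 0, 5.62 to 24.98 CPM (median 17.3) in group 4 and 6.62 to 16.7 CPM (median 11.3) in group 8. Group 4 was above group 0 by 0.91 in replicate 1 and 0.48 in replicate 2. With the first principal component in the model the difference over both replicates was 0.68, beside 0.71 ± 0.26 without it. With the title letter in the model it was 0.52. The unadjusted half-day p of Clk (edgeR F test) was 0.036 in the main model, 0.086 with the first component and 0.117 with the letter. In replicate 1 alone it was 0.132 and in replicate 2 alone 0.176.

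**Figure D4:**
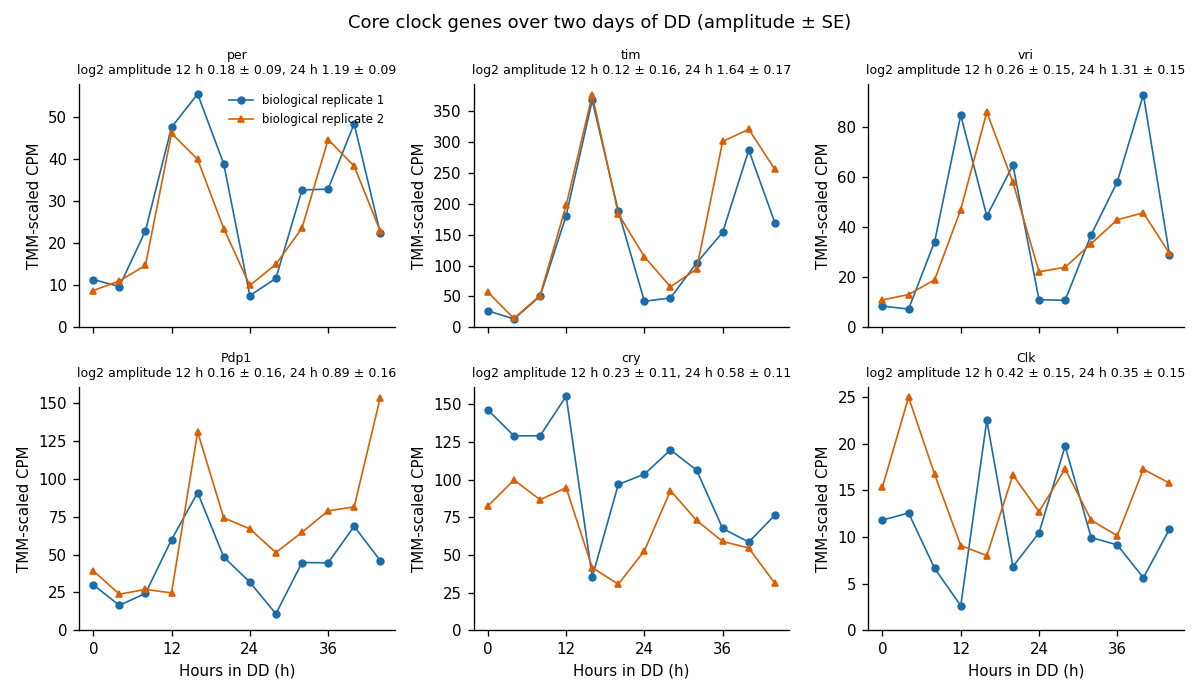
TMM-scaled CPM of 6 core clock genes against hours in DD, blue circles for biological replicate 1 and orange triangles for replicate 2, with the 12 h and 24 h log2 amplitudes (± SE) above each panel. The genes per, tim and vri are low near 0 to 4 h and 24 to 28 h of DD, with 24 h amplitudes of 1.19, 1.64 and 1.31 against 12 h amplitudes of 0.18, 0.12 and 0.26, and Clk has no amplitude over 0.42.

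Across the 53 genes called for 24 h, which the 24 h term itself chose, the median 12 h amplitude was 0.16, against 0.15 over all genes, and the median ratio of 12 h to 24 h amplitude was 22.3%. In none of the 53 was the 12 h amplitude the larger one. Over all genes tested it was the larger one in 4917 (52.4%), and the median ratio was 105%. Choice by the 24 h term favours a small ratio, so these values are not a result about the 53. Of the 53, 7 had an unadjusted half-day p under 0.05 (13.2%, beside 8.13% of all genes), and 0 passed after adjustment. These 7 were TotC, TotX, Drak, GstE9, CG17646, CG31729 and Cds. TotC had the largest 12 h term of the 53, 0.68 ± 0.17 beside a 24 h amplitude of 1.08 ± 0.17. For CG17646 the 12 h amplitude was 0.44 ± 0.14 (24 h, 0.87 ± 0.14), and for GstE9, a glutathione transferase, 0.29 ± 0.10 (24 h, 0.65 ± 0.10). Drak, a kinase of the death-associated family, had 0.23 ± 0.08 and Cds, an enzyme of phosphatidylinositol synthesis, 0.22 ± 0.07.

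The gene lists were described by their counts and medians. Only 1779 of the 9392 genes had a symbol, so each list was measured in part. The pairing came from tables ordered by 24 h rhythm and therefore favoured genes with a 24 h pattern. In the list for the unfolded protein response and ER folding, 7 of 30 members were tested, 0 passed after adjustment, 1 (PEK) was at an unadjusted p under 0.05 and the median 12 h amplitude was 0.14, against 0.15 over all genes. Edem1, which acts on misfolded ER glycoproteins, came next, with an amplitude of 0.22 ± 0.09. Of the 27 heat shock chaperones 2 were tested, Hsc70-5 and Hsp83, with 12 h amplitudes of 0.04 ± 0.06 and 0.01 ± 0.09. The 1 activity-regulated gene measured, CG14186, was 4.89 to 10.4 CPM (median 7.22) in group 0, 5.92 to 19.8 CPM (median 12.9) in group 4 and 6.21 to 17.8 CPM (median 8.07) in group 8 (adjusted p = 0.587). Its difference between group 4 and group 0 was 0.28 in replicate 1 and 1.08 in replicate 2, so that replicate 2 carried most of it.

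The abundant ribosomal protein genes shared a direction. Of 15 cytosolic members tested, 13 had over 1000 counts per library on average. All 13 were highest in group 4 (as were 41.9% of all genes tested), by 0.31 to 0.53 (log2, SE 0.21 to 0.31) over group 0. None of the 13 had an adjusted p under 0.587 over the 3 groups. The 13 genes were measured in the same 24 libraries, so they are not 13 separate observations. RpS18, the one of smallest p among the 13, was 4009 to 9176 CPM (median 5846) in group 0, 5044 to 11398 CPM (median 8950) in group 4 and 3937 to 9373 CPM (median 6530) in group 8. For RpS18 group 4 differed from group 0 by 0.69 in replicate 1 and 0.28 in replicate 2. Group 8 differed from group 0 by -0.17 and 0.32, so that in replicate 2 group 8 was the highest. The median difference of the 13 between group 4 and group 0 was 0.42 with TMM, 0.36 with DESeq2, 0.40 with upper-quartile factors, 0.07 with the library total alone (11 of 13 above 0) and -0.03 with limma-voom after quantile normalization (4 of 13 above 0). With the first principal component in the model it was 0.23 with the number of genes detected 0.21 and with the title letter 0.25. The direction of this group thus depended on the scaling.

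The mitochondrial lists were described in the same way. Of 13 mitochondrial ribosomal protein genes 0 had an unadjusted p under 0.05, the median 12 h amplitude was 0.08 and mRpS29 and mRpL49 led with amplitudes of 0.17 ± 0.10 and 0.20 ± 0.11. Of 20 nuclear genes of oxidative phosphorylation 0 had an unadjusted p under 0.05, with a median amplitude of 0.08. Here COX6AL had the smallest p, with an amplitude of 1.53 ± 0.66 (adjusted p = 0.613), and ND-B14, a complex I subunit, the next, at 0.12 ± 0.06. Mitochondrially encoded mRNAs were not among the genes with a symbol and were not analysed here. The proteasome list had 5 members tested, none at an unadjusted p under 0.05, and a median amplitude of 0.08. Rpt6R stood at 1.59 ± 0.63 (adjusted p = 0.607) and Prosalpha2 at 0.08 ± 0.06. Of the nutrient and insulin response list 7 of 24 were tested and 0 had an unadjusted p under 0.05. In that list Thor, which restrains cap-dependent translation, had a 12 h amplitude of 0.21 ± 0.11 and a 24 h amplitude of 0.59 ± 0.11, and the amylase gene Amy-p 0.54 ± 0.30 and 0.84 ± 0.31.

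Among immune effector peptides 8 of 33 were tested, 0 passed after adjustment, 2 (TotC and TotX) had an unadjusted p under 0.05 (beside 8.13% of all genes tested), and 7 of the 8 were highest in group 0 (beside 27.2% of all genes). With limma-voom after quantile normalization, with the first principal component or with the title letter in the model it was 6 of the 8. Among the 53 genes called for 24 h, 22 were highest in group 0. The 8 peptide genes were measured in the same 24 libraries, so they are not 8 separate observations. Of the 8, 6 had an unadjusted 24 h p under 0.05 (edgeR F test). Their median 12 h amplitude was 0.24 and their median 24 h amplitude 0.69. TotX was 24.8 to 64.3 CPM (median 44.0) in group 0, 11.1 to 59.4 CPM (median 30.1) in group 4 and 13.7 to 80.9 CPM (median 29.4) in group 8. Group 4 was below group 0 by -0.59 ± 0.21 (adjusted p = 0.587 over the 3 groups), with wide overlap. Among the marker lists, the glial genes had a median amplitude of 0.11 and no unadjusted p under 0.05 (wrapper at 0.16 ± 0.09 and Indy at 0.12 ± 0.10). The photoreceptor gene chp was 40.4 to 145.4 CPM (median 73.7) in group 0, 56.7 to 131.7 CPM (median 107.2) in group 4 and 45.6 to 101.3 CPM (median 77.2) in group 8 (adjusted p = 0.587). The amplitude was 0.31 ± 0.11 for chp, 0.18 ± 0.10 for inaD and 0.34 ± 0.13 for NimC1, and none passed after adjustment.

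The replicates were then set side by side. In replicate 1 alone 337 genes had an unadjusted p under 0.05 (3.59%) and in replicate 2 alone 257 (2.74%), and 12 genes were in both. Those 12 are 3.56% of the replicate 1 genes, where 2.74% of all genes had such a p in replicate 2, and 4.67% of the replicate 2 genes, where 3.59% of all genes had one in replicate 1. Of the 12, CG18302, TotC and CG15213 had a symbol. CG15213, named for this reason, differed between group 8 and group 0 by -0.57 in replicate 1 and 0.72 in replicate 2, so that its half-day shape was not alike in the replicates. The test of whether the half-day pattern differed between replicates passed for 0 genes after adjustment and for 251 unadjusted (2.67%, edgeR).

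Between the days the comparison gave 0 genes after adjustment and 562 at an unadjusted p under 0.05 (5.98%, edgeR). On the first day alone (0 to 20 h) 1158 genes had an unadjusted half-day p under 0.05 (12.3%) and on the second day alone (24 to 44 h) 451 (4.80%), with 105 in both. Those 105 are 9.07% of the first-day genes and 23.3% of the second-day genes, beside 4.80% and 12.3% of all genes. In group 4, 4 of 4 libraries of the first day and 2 of 4 of the second were below 0 on the first principal component, and the part of that measure in this overlap was not tested.

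Alternatives chosen after the data were seen put the library measures and the title letter into the model. With the first principal component 341 genes had an unadjusted p under 0.05 (3.63%), of which 234 were among the 764, and with the number of genes detected 245 (2.61%). With the letter in place of the replicate it was 324 (3.45%), of which 277 were among the 764; the 1 library with d then adds nothing to the group differences. None of the 3 gave a gene with an adjusted p under 0.05. Replicate 2 alone, where all libraries had c in the first and g in the second data set, gave the 257 genes above. With the first component in the model the difference between group 4 and group 0 was 0.29 for Cul1, 0.41 for PEK, 0.38 for Ulp1 and 0.65 for Ltn1, and the difference between group 8 and group 0 was -0.40 for Cyp6a13 and -1.08 for TotC. With the letter in the model they were 0.26 for Cul1, 0.33 for PEK, 0.35 for Ulp1, 0.55 for Ltn1, -0.40 for Cyp6a13 and -1.07 for TotC.

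**Figure D5:**
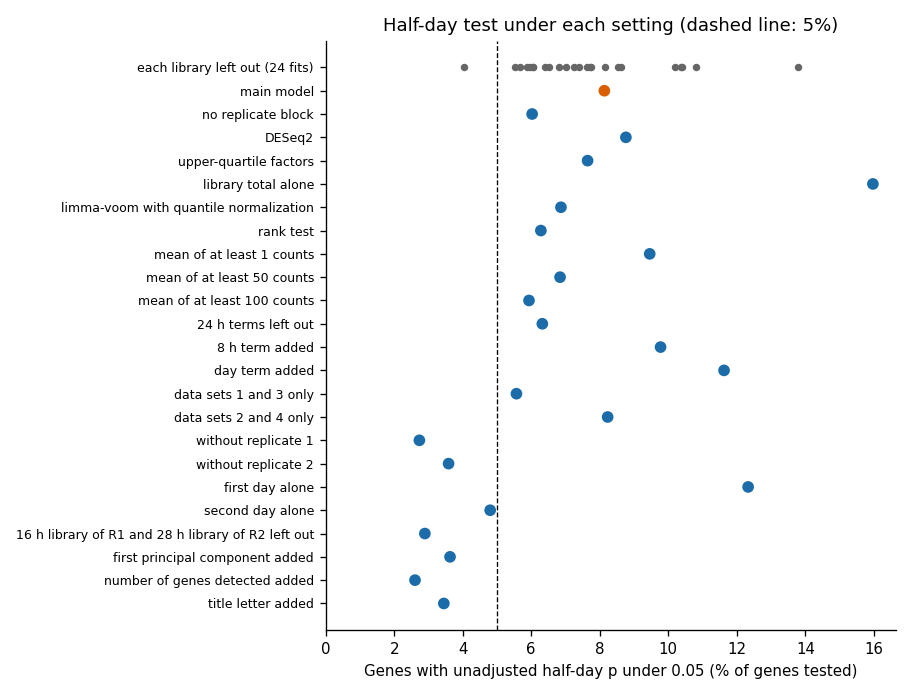
Share of genes with an unadjusted half-day p under 0.05 (horizontal, % of genes tested) under each setting, with the main model in orange, the alternatives in blue and the 24 fits that each leave out 1 library in grey; the dashed line marks 5%. The share is 8.13% in the main model, 15.97% with the library total alone and 2.61% with the number of genes detected in the model.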

How the data were processed

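Ribosome-bound RNA of 24 libraries was sequenced, and the authors deposited 2 count tables per library, holding raw counts of reads per gene; per the submitters' processing notes these came from TopHat2 2.0.9, SAMtools 0.1.19 and HTSeq 0.6.1 on BDGP6. Both tables of a library were summed. Lines that name no gene (not unique, ambiguous, no feature) were left out; not uniquely mapped reads were 3.92% to 47.0% of reads per library. Genes with a mean of at least 20 counts were tested with edgeR 4.0.16 (TMM, quasi-likelihood F test, R 4.3.3) over the 3 groups, with 24 h cosine and sine and the biological replicate as terms, and p-values were adjusted by Benjamini-Hochberg over all genes. A 12 h amplitude is computed from the 3 group levels. Alternatives used DESeq2 1.42.0, limma 3.58.1, other scalings and filters, subsets of libraries and added terms. The scripts were tested on simulated data.

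Identifiers were paired with symbols through the study's own gene tables and RefSeq (Release 6 names and coordinates); 1779 of the 9392 tested genes had one. Genes named are the 12 of smallest p (with a symbol, or at most 2 identifiers), measured core clock genes and 2 members of smallest p per list; the 12 genes of smallest p with a symbol, CG15213, CSN1a, hyd and the 24 h genes with an unadjusted half-day p under 0.05 were added after values were seen. The members and lists were chosen with earlier results of these data known. Residual spread is that between libraries of different times and crosses. Depth (6371034 to 37267216 counts per library) limits precision for low-count genes.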

Additional observations from a re-analysis of the deposited data

Results flagged for a closer look

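In groups of 8 libraries, 1 value was marked where its gap to the nearest other over the group's range exceeded Dixon's critical value. Chance alone marks about 1 in 20 groups, and 4 of 87 groups were marked. In group 4, the 10 highest genes took 49.6% of counts in the 28 h library of replicate 2. The summed photoreceptor markers stood at 1706 CPM in 1 library of group 0 and at 1424 CPM in 1 library of group 8. Clk stood at 1.65 on the log2(CPM + 0.5) scale (2.64 CPM) in the 12 h library of replicate 1. No named gene had a half-day pattern that differed between replicates or between days after adjustment.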

How the results depend on the processing

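No alternative gave a gene with an adjusted half-day p under 0.05, and the 48 named genes stayed on that side under all 46 alternatives that could be fitted. The number of genes at an unadjusted p under 0.05 (764) was 1500 with the library total alone, 1252 with a mean of at least 1 count, 391 with at least 100, 1158 on the first day, 451 on the second, 272 without the 16 h library of replicate 1 and the 28 h library of replicate 2, 341 with the first principal component, 245 with the number of genes detected and 324 with the title letter in place of the replicate. With replicates or libraries left out it ran between 257 (without replicate 1) and 1295 (without the 40 h library of replicate 1), being 337 without replicate 2 and 380 without the 16 h library of replicate 1. The pairwise counts ran between 809 (without the 16 h library of replicate 1) and 1760 for group 4 against 0, 84 and 270 (without the 20 h library of replicate 1) for 8 against 0, and 661 (without the 44 h library of replicate 2) and 1702 for 8 against 4. Without the 24 h library of replicate 1 they were 858 and 249 for the first 2 pairs, and without the 8 h library of replicate 2 the second was 197. The 24 h calls (53) were 140 with DESeq2 and ran between 26 (without the 4 h library of replicate 2) and 70 with 1 library left out, being 29 without the 8 h and 32 without the 40 h library of replicate 1, and 33 without the 0 h or the 16 h library of replicate 2.

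Without the replicate block the half-day test gave 0 adjusted and 566 unadjusted genes, group 8 against 0 gave 71 (123 with it) and the 24 h term 27. The difference between the replicates was not alike at all time points. Each library's deviation from the mean of its time point was correlated with those of its replicate at other times. Over 132 pairs the correlation was -0.74 to 0.76, median 0.20. With 2 libraries per time point the deviations of the replicates mirror each other, so every value is counted once in each replicate. The half-day direction of named genes turned, always with an adjusted p far over the threshold, for Prosalpha2 (0.307), ND-B14 (0.474), Hsp83 (0.504), inaD (0.558), mRpS29 (0.761) and Cds (0.803) with the library total alone; for per (0.981) and tim (0.933) with the 24 h terms left out; for Pdp1 (0.854) and Indy (0.99) on the first day; for wrapper (0.867), cry (0.927) and Hsc70-5 (0.999) on the second; for RpL10Aa (0.997) and Amy-p (0.997) with the first principal component; for tim, Hsc70-5 and mRpL49 without replicate 1; and for Hsp83 with DESeq2 (0.995), limma-voom (0.997), the rank test (1.0), a mean of at least 100 counts (0.995), without replicate 2 and without 5 single libraries. With replicates or libraries left out the adjusted p ran from 0.815 to 0.997 for tim, 0.88 to 0.991 for Hsc70-5, 0.91 to 0.999 for Hsp83 and 0.438 to 0.983 for mRpL49. The cause was not tested.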
